A study of Mus musculus with 12 samples.

Results

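The genes described here encode the subunits, activators and assembly factors of the proteasome. They were chosen by name, as the probe sets whose only gene symbol is Psm followed by a letter from a to g and a number. This took 103 of the 45101 probe sets, which stood for 49 of the 18193 genes with a probe set of 1 symbol. Of these 49 genes, 48 passed the filter on low signals and were among the 13156 genes tested. The exception was Psmb11, the catalytic subunit of the thymic proteasome, whose group means lay between 4.44 and 5.03 on the log2 scale. A single probe set stood for 22 of the genes and several for 27, with up to 8 for Psmd11. Among the symbols that match, 2 name no subunit: Psmc3ip, a cofactor of meiotic recombination, and Psme3ip1, which binds the activator encoded by Psme3.

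The arrays compared CD8 T cells from spleens of male mice, in 4 groups of 3 arrays, and the labels give no age. All mice carried a Cre recombinase under the Cd4 promoter, which is active in T cells developing in the thymus, so the controls carried it too. The control littermates (WT) had intact Scap alleles (Cd4-Cre/Scap+/+) and the others (KO) had floxed ones (Cd4-Cre/Scapfl/fl). Scap encodes the protein that escorts SREBP transcription factors, which drive sterol and fatty acid synthesis, from the endoplasmic reticulum to the Golgi. Cells were profiled quiescent (T0) or after 6 h on plate-bound antibody to CD3 with soluble antibody to CD28 (T6). Levels are given as log2(signal + 16), called log2 signal here, as mean ± SD of 3 arrays. Differences are in the same log2 units, with the standard error (SE) or 95% interval of the fit. A gene was called, and is said to have risen or fallen, at a Benjamini-Hochberg adjusted p under 0.05 over all 13156 genes (limma).

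The proteasome is the protease that degrades proteins tagged with ubiquitin. Its 20S core is a barrel of alpha rings, which gate the entrance, and beta rings, which hold the catalytic sites. The 19S cap binds ubiquitin chains, removes them, and unfolds and threads the substrate with a ring of ATPases (the base). In lymphocytes and in cells exposed to interferon, Psmb8, Psmb9 and Psmb10 replace the catalytic subunits Psmb5, Psmb6 and Psmb7, and the resulting immunoproteasome is known for making peptides that MHC class I presents. T cells enter growth and division after stimulation through CD3 and CD28, a state with high rates of protein synthesis and turnover.

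Over all probe sets other than controls the correlation of 2 arrays was 0.969 to 0.978 within a group and 0.949 to 0.976 between groups. The tested Scap probe set read 11.26 ± 0.25 in WT T0, 11.01 ± 0.23 in KO T0, 11.57 ± 0.02 in WT T6 and 11.10 ± 0.04 in KO T6, and was called in neither genotype comparison (adjusted p = 0.593 and 0.273). Cd8a, which encodes a chain of the CD8 co-receptor, read between 12.70 and 13.49 as a group mean, and Cd4 did not pass the filter on low signals. The KO arrays numbered 2 had the highest summed signals of the erythroid markers (31788 at T0 and 38718 at T6, against 3399 to 15965 on the other KO arrays) and of the proliferation markers (36104 and 39498, against 10549 to 21326). In bulk RNA, fewer cells of a type and less RNA per cell cannot be told apart.

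The first comparison asks how the control cells changed within 6 h of stimulation. Proteasome transcripts rose broadly and by a modest amount. Of the 48 genes tested, 31 rose and 0 fell in WT, against 11.3% of all 13156 genes called as rises and 13.8% called as falls. The median log2 change was 0.40 for the proteasome genes, or 64.6% called as rises, and -0.06 for all genes. The changes ran from -0.50 (Psma8) to 1.29 (Psme3), with a median SE of 0.10. In KO cells 26 of the 48 rose and 0 fell, against 10.4% of all genes in each direction, with a median of 0.34 for the proteasome genes and -0.004 for all genes. All 31 WT risers and all 26 KO risers had every T6 array above every T0 array of their genotype, which a call from the same arrays makes likely. Over all 48 genes, called or not, this held for 35 in WT and 34 in KO, and the reverse for 0. The share over all 13156 genes was not counted, so these counts are not read as particular to the proteasome genes.

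Most of these genes gave high signals. Of the 48, 44 had a mean log2 signal of at least 10. Among those 44 genes 31 rose in WT and 26 in KO, which is 70.5% and 59.1% of them. Of the 4506 genes of all kinds at that level, 19% were called as rises in WT and 16.2% in KO. The level of 10 was chosen after the data had been seen.

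The shift was also read array by array, on the same arrays that gave the calls. Each gene was set against its own mean over the 12 arrays, and the median of these deviations over the 48 genes was taken. It lay between -0.25 and -0.10 on the 6 T0 arrays and between 0.15 and 0.22 on the 6 T6 arrays. The T0 array with the highest value, -0.10, was KO T0 replicate 2, and the highest of all was KO T6 replicate 2. Over all genes tested the same median lay between 0.006 and 0.032 on the T0 arrays and between -0.041 and 0.026 on the T6 arrays.

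**Figure D1:**
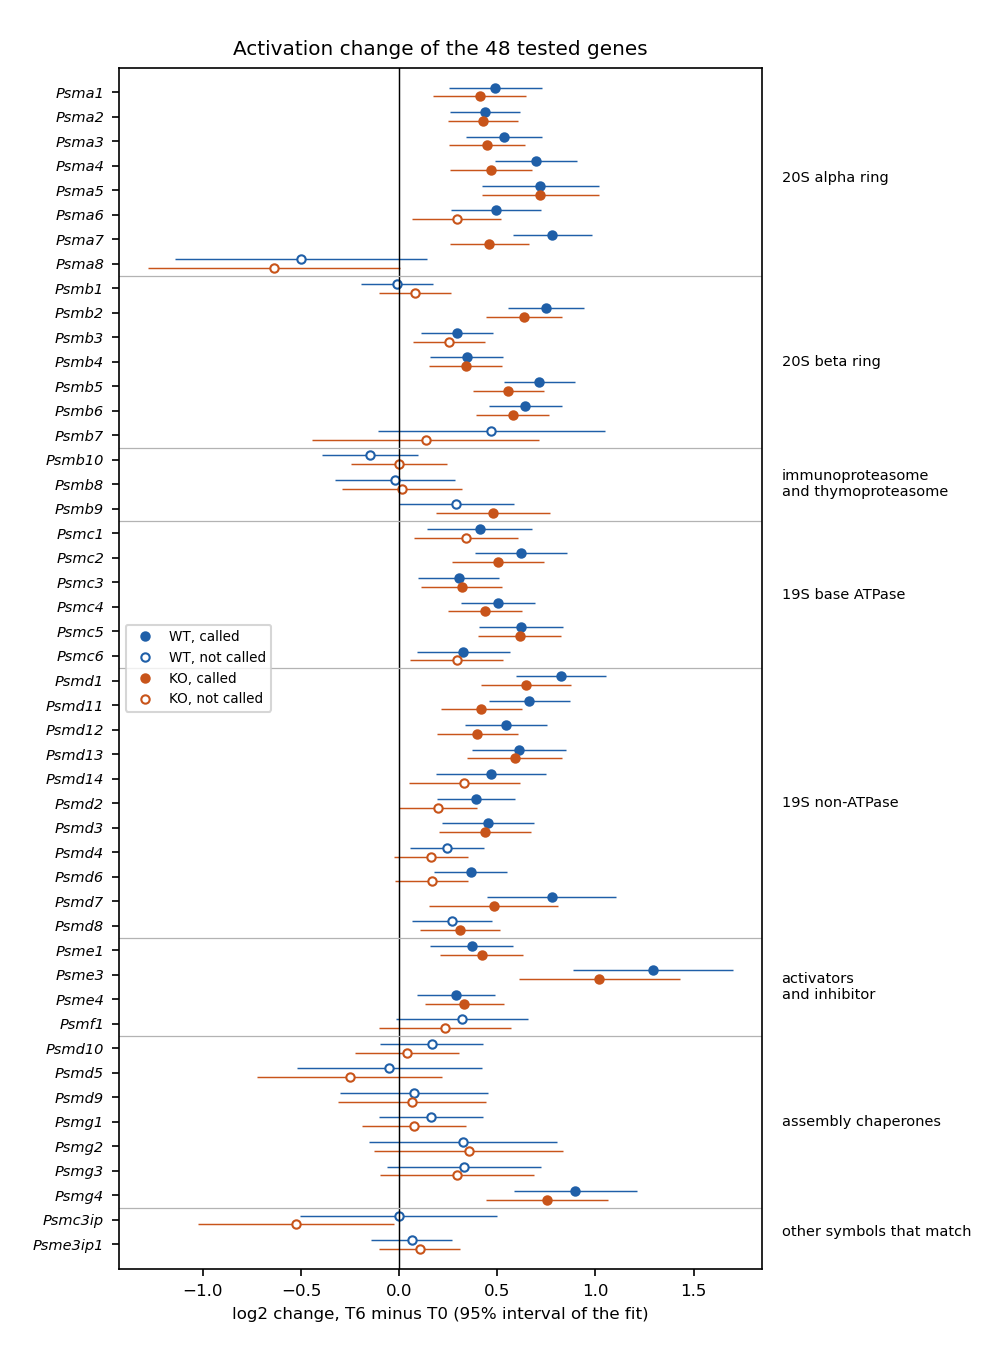
Log2 change from T0 to T6 (x axis, log2 units) of the 48 tested genes, grouped by role, in WT (blue) and KO (orange); points are the estimates of the fit and lines their 95% intervals, and filled points were called at an adjusted p under 0.05. Most genes of the 20S core and the 19S cap lie to the right of 0, Psme3 lies farthest to the right at 1.29 and 1.02, and the intervals of Psmb8 and Psmb10 include 0.

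The alpha subunits of the 20S core, which form the outer rings, rose in WT in 7 of 8 cases and in KO in 6 of 8, with median changes of 0.51 and 0.44. Of all 13156 genes, 11.3% were called as rises in WT and 10.4% in KO. At a mean log2 signal of at least 10 these shares were 19% and 16.2%. They also stand beside the later counts by role and by list. Psma5 went from 11.97, 12.46 and 12.39 on the 3 WT T0 arrays to 12.98, 13.09 and 12.91 at T6. In KO it went from 12.29, 12.48 and 12.22 to 13.00, 13.10 and 13.05. Every T6 array lay above every T0 array, and the change was 0.72 in each genotype (SE 0.13, adjusted p = 0.00356 in WT and 0.00413 in KO), or 1.65-fold. The largest alpha change in WT was that of Psma7, at 0.78 (adjusted p = 0.000221), against 0.46 in KO. Psma6 rose by 0.49 in WT and stood at 0.29 in KO, where it was not called (adjusted p = 0.0716). A second bright Psma6 probe set, tested separately, rose by 0.39 in KO. The alpha gene that was called in neither genotype was Psma8, the testis form of Psma7, which read 5.52 to 6.61 as group means and is near background.

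Of the 7 constitutive beta subunits 5 rose in WT and 4 in KO. Psmb2, a subunit without catalytic activity, rose by 0.75 in WT and 0.64 in KO (SE 0.09 each). Psmb4 rose by 0.34 in both (adjusted p = 0.0139 and 0.0163). Psmb3 rose by 0.29 in WT and stood at 0.25 in KO (adjusted p = 0.0254 and 0.0542). A second bright Psmb3 probe set, tested separately, rose by 0.34 in WT and 0.35 in KO. Psmb1, which forms part of the same ring, read 12.39 ± 0.06 and 12.38 ± 0.09 in WT and had a change of -0.01 (interval -0.19 to 0.17). Its change in KO was 0.08.

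The 3 catalytic beta subunits and the 3 immunoproteasome subunits that replace them are described array by array. Psmb5, the chymotrypsin-like subunit, read 11.68, 11.60 and 11.66 in WT T0 and 12.38, 12.34 and 12.36 in WT T6. In KO it read 11.80, 11.84 and 11.69, then 12.39, 12.24 and 12.35. The groups of each genotype did not overlap, and the change was 0.71 in WT (SE 0.08, adjusted p = 0.000212) and 0.56 in KO (adjusted p = 0.00109). Psmb6, the caspase-like subunit, read 11.70, 11.59 and 11.63 in WT T0 and 12.34, 12.21 and 12.29 in WT T6. In KO it read 11.74, 11.67 and 11.60, then 12.30, 12.16 and 12.29. It rose by 0.64 in WT (adjusted p = 0.000466) and by 0.58 in KO (adjusted p = 0.00103), again with no overlap. Psmb7, the trypsin-like subunit, read 12.06, 11.40 and 12.12 in WT T0, 12.60, 12.39 and 12.002 in WT T6, 11.73, 12.30 and 11.54 in KO T0, and 11.86, 12.30 and 11.82 in KO T6. Its groups overlapped, with SDs of 0.27 to 0.40, and its changes of 0.47 in WT and 0.13 in KO were not called (adjusted p = 0.228 and 0.77).

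The immunoproteasome subunits gave clear signals in quiescent cells, with T0 group means of 11.85 to 13.01. Psmb8, the partner of Psmb5, read 13.24, 12.91 and 12.88 in WT T0 and 12.89, 13.04 and 13.04 in WT T6. Its KO arrays gave 12.95, 12.66 and 13.10, then 12.96, 12.80 and 12.99. All 4 groups overlapped, and its change was -0.02 in WT (interval -0.33 to 0.28) and 0.02 in KO. Psmb10, the partner of Psmb7, read 12.18, 11.87 and 11.87 in WT T0, 11.74, 11.88 and 11.86 in WT T6, 11.77, 11.80 and 11.99 in KO T0, and 11.81, 11.89 and 11.86 in KO T6. These groups overlapped too, and the WT change was -0.15 (interval -0.39 to 0.09). Psmb9, the partner of Psmb6, was intermediate. It read 12.90, 12.65 and 12.46 in WT T0 and 12.80, 13.00 and 13.08 in WT T6, which overlap, with a change of 0.29 that was not called (adjusted p = 0.137). Its KO arrays gave 12.53, 12.40 and 12.69, then 13.02, 12.94 and 13.09, and it rose by 0.48 (SE 0.13, adjusted p = 0.0268). That call was lost when replicate 1 or 2 of KO T0, or 1 or 3 of KO T6, was left out (adjusted p = 0.0706 to 0.0854) and with a block for replicate number (adjusted p = 0.0687). The difference between its KO and WT changes, 0.19, was not called (unadjusted p = 0.335).

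**Figure D2:**
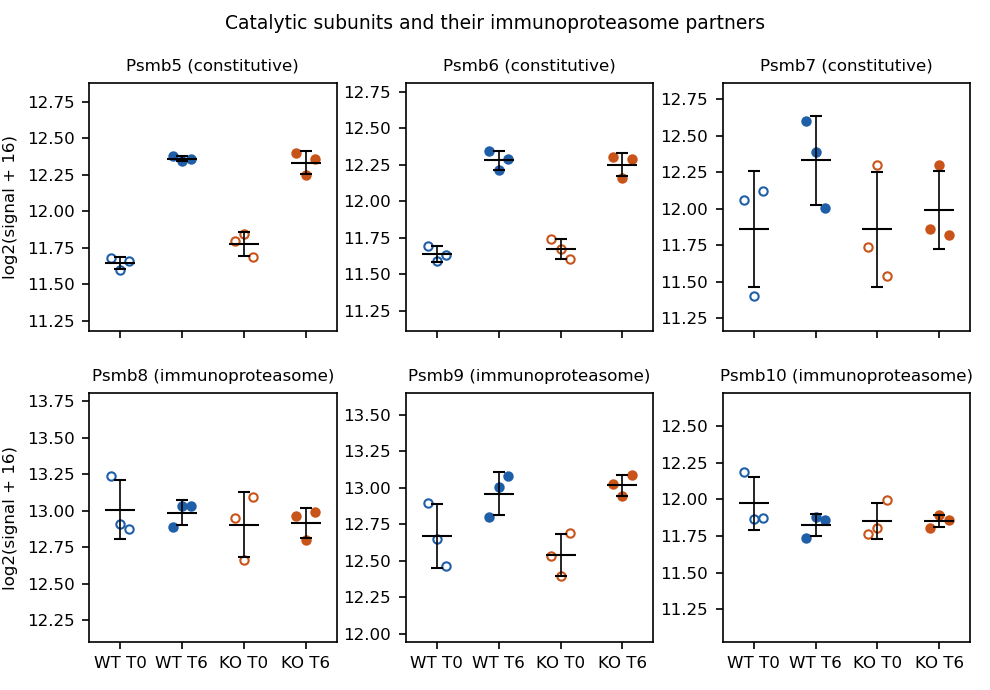
Log2 signal (y axis, log2(signal + 16), with a separate range of equal span in each panel) of the 3 constitutive catalytic subunits (top row) and the immunoproteasome subunits that replace them (bottom row) in the 4 groups; points are arrays, bars the mean and whiskers ± SD (n = 3). Psmb5 and Psmb6 are higher on every T6 array than on every T0 array of the same genotype, and Psmb8 and Psmb10 overlap between T0 and T6.

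Within an array the balance of a constitutive subunit to its partner could be followed as a difference of log2 signals. Only the change of this difference is read, because the level of one probe set says nothing about that of another. For Psmb5 minus Psmb8 it went from -1.56, -1.31 and -1.22 to -0.51, -0.69 and -0.68 in WT, a shift of 0.74 toward the constitutive subunit. In KO it went from -1.16, -0.82 and -1.41 to -0.57, -0.56 and -0.64, a shift of 0.54, and in both genotypes the T0 and T6 arrays did not overlap (exact permutation p = 0.1, two-sided, the smallest that 3 against 3 arrays allow). For Psmb6 minus Psmb9 the shift was 0.35 in WT (exact permutation p = 0.1) and 0.10 in KO (exact permutation p = 0.6). For Psmb7 minus Psmb10 it was 0.62 in WT and 0.14 in KO (exact permutation p = 0.2 and 0.9), where the arrays overlapped. Over these 6 comparisons the adjusted values were 0.2 or higher, so none could pass 0.05 in this design, and the comparisons were chosen after the data had been seen.

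Promoter sequences are shown for Psmb5, which rose, and its partner Psmb8, with changes near 0, for Psmb6 and Psmb9, and for Psme3, which had the largest rise among the probe sets used. Each run is the 150 bases before the annotated start in the RefSeq annotation of the GRCm38.p6 assembly, written 5′ to 3′ on the gene's strand, with matches to the searched motifs in capitals.
Psmb5 (chr14:54617996-54618145, minus strand): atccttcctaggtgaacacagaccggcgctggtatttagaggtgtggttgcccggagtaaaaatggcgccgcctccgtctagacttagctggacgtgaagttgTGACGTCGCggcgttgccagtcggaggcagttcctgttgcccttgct
Psmb8 (chr17:34198045-34198194, plus strand): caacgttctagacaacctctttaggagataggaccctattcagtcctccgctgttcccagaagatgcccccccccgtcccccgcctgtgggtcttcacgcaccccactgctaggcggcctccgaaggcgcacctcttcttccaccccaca
Psmb6 (chr11:70525207-70525356, plus strand): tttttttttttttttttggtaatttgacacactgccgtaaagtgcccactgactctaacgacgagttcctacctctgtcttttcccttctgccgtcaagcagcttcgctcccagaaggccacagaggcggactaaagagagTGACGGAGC
Psmb9 (chr17:34187331-34187480, minus strand): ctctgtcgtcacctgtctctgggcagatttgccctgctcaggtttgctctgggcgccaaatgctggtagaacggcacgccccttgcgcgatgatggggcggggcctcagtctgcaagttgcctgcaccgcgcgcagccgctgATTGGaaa
Psme3 (chr11:101316063-101316212, plus strand): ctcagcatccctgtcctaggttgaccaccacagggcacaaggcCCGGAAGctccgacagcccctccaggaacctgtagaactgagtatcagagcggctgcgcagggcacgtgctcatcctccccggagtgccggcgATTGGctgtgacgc
The searched motifs were TGACNNNGC (the core of the antioxidant response element, bound by the factors of the Nfe2l1 family), GAAANNGAA (the core of the interferon-stimulated response element), CCAAT and CCGGAAG (an ETS factor core), on both strands. The match in Psmb5 starts 47 bases before the gene's start and that in Psmb6 starts 9 bases before it. ATTGG in Psmb9 and Psme3 is CCAAT on the other strand, and CCGGAAG in Psme3 lies 107 bases before the start. No match in these runs overlaps another, and the Psmb8 run holds none of the 4.

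Over the wider window of 250 bases before to 50 after the start, 41 of the 49 genes had a sequence in the table. TGACNNNGC was found in 6 of the 41 (14.6%), against 13.0% of 21262 promoters of the same length. GAAANNGAA was found in 7 (17.1%, against 8.1%) and CCAAT in 16 (39.0%, against 38.2%). CCGGAAG was found in 16 (39.0%, against 11.6%), among them the promoters of Psma6, Psmc1, Psmd2, Psmd11 and Psme4. It was present in 11 of 27 WT risers and in 5 of 13 genes that were not called in WT. A match describes the letters only and was not compared with binding data.

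In the annotation, Psmb8 and Psmb9 lie next to the peptide transporter genes on chromosome 17, in the order Psmb9, Tap1, Psmb8 and Tap2. Psmb5 neighbours Psmb11 on chromosome 14. The 49 genes lie on 16 chromosomes, and 9 of the genes lie on chromosome 11.

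The ATPases of the 19S base, which unfold the substrate, rose in 6 of 6 cases in WT and in 4 of 6 in KO. Psmc2 went from 12.25 ± 0.01 to 12.87 ± 0.10 in WT, a rise of 0.62 (adjusted p = 0.00209), and rose by 0.50 in KO. Psmc5 rose by 0.62 in WT and 0.61 in KO, and Psmc4 by 0.50 and 0.44. The other 3 rose by less in WT, Psmc1 by 0.41, Psmc6 by 0.33 and Psmc3 by 0.30. Each of these calls was lost when any 1 of the 3 WT T0 arrays, WT T6 replicate 1 or WT T6 replicate 2 was left out (adjusted p up to 0.0944, 0.127 and 0.119), the Psmc6 call also without replicate 3 of WT T6, 1 of KO T0, or 1 or 3 of KO T6, and the Psmc3 call also without 2 KO arrays (T0 replicate 1 and T6 replicate 3, each in turn). The changes themselves then stayed at 0.37 to 0.43, 0.30 to 0.34 and 0.26 to 0.34. In KO, Psmc3 rose by 0.32, and this call was lost without any 1 of the 3 KO T6 arrays or KO T0 replicate 1 or 3 (adjusted p up to 0.113, changes of 0.27 to 0.34) and with the replicate block (adjusted p = 0.0808). Psmc1 and Psmc6 stood at 0.34 and 0.29 in KO and were not called.

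The non-ATPase subunits of the 19S cap include the scaffolds, the ubiquitin receptor and the deubiquitinase. Of 11 genes, 9 rose in WT and 7 in KO, with medians of 0.47 and 0.40. Psmd1, a scaffold of the base, read 11.37, 11.31 and 11.48 in WT T0 and 12.28, 12.17 and 12.19 in WT T6. The KO arrays gave 11.59, 11.72 and 11.37, then 12.13, 12.27 and 12.21. Its groups did not overlap, and it rose by 0.83 in WT (SE 0.10, adjusted p = 0.000381), or 1.77-fold, and by 0.65 in KO (adjusted p = 0.00181). Psmd7 rose by 0.78 in WT and 0.48 in KO, Psmd11 by 0.66 and 0.42, Psmd13 by 0.61 and 0.59, Psmd12 by 0.54 and 0.40, and Psmd3 by 0.45 and 0.44, all lid subunits. Psmd14, the deubiquitinase of the lid, rose by 0.47 in WT and stood at 0.33 in KO (adjusted p = 0.0956). Psmd2, the second scaffold of the base, rose by 0.39 in WT and Psmd6, a lid subunit, by 0.36. In KO they stood at 0.20 and 0.17. Psmd8 rose in KO by 0.31 and stood at 0.27 in WT (adjusted p = 0.0551), and Psmd4, a ubiquitin receptor, stood at 0.25 in WT (adjusted p = 0.0596) and 0.16 in KO.

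Some of these calls lay close to the threshold and were lost with 1 array fewer, while the changes stayed near their size. In WT the Psmd14 call was lost without any 1 of the 3 T0 arrays or T6 replicate 1 or 2 (adjusted p up to 0.0684, changes of 0.44 to 0.48). In KO the Psmd7 call was lost without any 1 of the 6 KO arrays or WT T0 replicate 1 (adjusted p up to 0.116, changes of 0.43 to 0.53). The KO call of Psmd8 was lost without any KO array except T6 replicate 2, any WT T6 array or WT T0 replicate 3 (adjusted p up to 0.12, changes of 0.27 to 0.31), and with the replicate block (adjusted p = 0.0775). Psmd3 lost its KO call without T0 replicate 3 or T6 replicate 1 of the KO (adjusted p up to 0.056, changes of 0.38 and 0.41), and Psmd12 without KO T0 replicate 1 (adjusted p = 0.0516, change of 0.34). Calls of the 20S core were lost for Psmb3 in WT, without any 1 of the 3 T0 arrays or T6 replicate 1 or 3 (adjusted p up to 0.0934, changes of 0.24 to 0.31), for Psmb4 in KO, without replicate 3 of KO T0 or replicate 1 or 3 of KO T6 (adjusted p up to 0.0605, changes of 0.30 to 0.33), and for Psma1 in KO, without replicate 1 or 3 of KO T0 or replicate 2 of KO T6 (adjusted p up to 0.0723, changes of 0.34 to 0.37). Over all 48 genes, 24 of the 31 WT calls and 17 of the 26 KO calls stood whichever single array was left out.

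The activators open the core without the 19S cap, and Psme3, which encodes PA28 gamma, the activator found in the nucleus, had the largest rise of the 48 genes by the probe sets used here. It read 9.61, 9.38 and 9.60 in WT T0 and 10.87, 10.91 and 10.69 in WT T6. In KO it read 9.40, 10.01 and 9.31, then 10.54, 10.82 and 10.42. Every T6 array lay above every T0 array, and KO T0 replicate 2 was the highest at T0. The change was 1.29 in WT (SE 0.18, adjusted p = 0.000767), or 2.45-fold, and 1.02 in KO (adjusted p = 0.00347), or 2.03-fold. A second Psme3 probe set rose by 0.75 in WT and 0.60 in KO when probe sets were tested separately, less than Psmd1. The WT change of Psme3 was 0.64 when its probe sets were averaged, and a dim Psmd7 probe set (7.51 in KO T0) rose by 1.12 in KO, so the rank of Psme3 depends on the probe set. Psme1, which encodes the alpha chain of the interferon-inducible activator PA28, read 13.65 ± 0.11 in WT T0 and rose by 0.37 in WT and 0.42 in KO. Psme4, which encodes PA200, rose by 0.29 in WT and 0.33 in KO. Psmf1, an inhibitor of the core, stood at 0.32 in WT and 0.23 in KO and was not called (adjusted p = 0.156 and 0.322).

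The calls of Psme1 and Psme4 lay close to the threshold. In WT that of Psme1 was lost without WT T0 replicate 3 or WT T6 replicate 2 or 3 (adjusted p up to 0.0666, changes of 0.31 to 0.36), and that of Psme4 without any 1 of the 6 WT arrays or of 2 KO arrays (T0 replicate 1 and T6 replicate 3; adjusted p up to 0.113, changes of 0.26 to 0.32). In KO the Psme4 call was lost without KO T0 replicate 1 or 3 or KO T6 replicate 2 or 3 (adjusted p up to 0.0882, changes of 0.27 to 0.35) and with the replicate block (adjusted p = 0.0564).

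The assembly chaperones guide the building of the rings and the base and leave the finished particle. Of 7 tested, 1 rose in each genotype (14.3%), near the 11.3% and 10.4% of all genes, with medians of 0.16 in WT and 0.07 in KO. That gene was Psmg4, a chaperone of alpha ring assembly, which read 10.15, 10.09 and 9.87 in WT T0 and 11.02, 10.75 and 11.04 in WT T6. The KO arrays gave 10.12, 10.29 and 10.08, then 11.11, 10.67 and 10.96. The groups did not overlap, and it rose by 0.90 in WT (SE 0.14, adjusted p = 0.00126) and by 0.75 in KO (adjusted p = 0.00409). Psmg3, its partner in alpha ring assembly, stood at 0.33 and 0.29, and Psmg2 at 0.33 and 0.35, with SDs at T0 of 0.26 to 0.38 in these 2 genes. Psmg1, the partner of Psmg2, stood at 0.16 and 0.07. The base chaperones Psmd10, Psmd9 and Psmd5 stood at 0.16, 0.07 and -0.05 in WT and at 0.04, 0.06 and -0.25 in KO. The 2 symbols that name no subunit were called in neither genotype, with changes of 0.06 (Psme3ip1) and -0.003 (Psmc3ip) in WT and 0.10 and -0.53 in KO. With the replicate block Psmc3ip was called as a fall in KO (adjusted p = 0.0444), as was Psma8, at -0.64 (adjusted p = 0.0191).

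When each probe set was tested on its own, 42 of 96 proteasome probe sets rose in WT (43.8%, against 9.84% of 24539 probe sets) and 39 in KO (40.6%, against 8.79%). A second probe set of Psma7 rose by 0.90 in WT against 0.78 for the first, and 1 of Psma5 by 0.76 against 0.72. Some probe sets of a gene disagreed. A dim Psma1 probe set at 6.76 in WT T0 fell by 0.73 while the one used here rose by 0.49 from 11.98. The probe sets of Psma6 at 7.21 and 9.41 stood at -0.42 and -0.18, while its bright ones rose by 0.43 and 0.49. The Psma6 probe sets below 0 were not called. Brighter probe sets disagreed as well: 1 of Psmd11 at 10.04 stood at 0.28 in WT and -0.02 in KO, not called, against rises of 0.66 and 0.42, and 1 of Psmd4 at 10.75 stood at 0.02 in WT against 0.25. Second probe sets of Psmb4 at 12.67 and Psmd6 at 11.08 stood at 0.20 and 0.27 in WT, not called, against 0.34 and 0.36.

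Partners of the proteasome outside the name rule were described from a list of 19 genes, 11 of which were tested. In WT 6 rose and 0 fell, and in KO 3 rose and 0 fell. Pomp, the maturation factor of the core, rose by 0.72 in WT and 0.56 in KO (adjusted p = 0.000462 and 0.0023). Vcp, which extracts ubiquitin-tagged proteins for the proteasome, rose by 0.55 and 0.36, and its cofactor Nploc4 by 0.45 and 0.38. Ecpas, a scaffold bound to the particle, rose by 0.43 in WT, and the ubiquitin ligase Ube3c by 0.46.

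Among 9 tested genes of 11 known to regulate proteasome genes, 4 rose and 1 fell in WT, and 3 rose in KO. Nfe2l1, the factor that raises proteasome gene transcription when the proteasome is inhibited, rose by 0.52 in WT (adjusted p = 0.0326) and stood at 0.43 in KO (adjusted p = 0.0762). Mafg, which encodes a small Maf protein that pairs with it, rose by 1.42 in WT and 1.52 in KO. Ngly1, the enzyme that processes the Nfe2l1 protein, fell by 0.55 in WT and stood at -0.32 in KO. Irf1, which activates the immunoproteasome genes, rose by 0.65 in WT and 0.81 in KO.

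The peptide loading genes, which use the peptides the proteasome makes, were all tested, and 4 of 10 rose in each genotype. Tap1, the neighbour of Psmb8 and Psmb9, rose by 0.51 in WT and 0.71 in KO, Tap2 by 0.73 and 0.56, and the trimming enzyme Erap1 by 0.57 and 0.59. The MHC class I genes H2-K1 and H2-D1 were called in neither, with changes of 0.01 and 0.03 in WT. Of 14 tested interferon-induced genes 6 rose in each genotype, and Gbp2, a guanylate-binding protein, rose by 3.15 in WT. Psmb8 and Psmb10, which interferon is known to induce, were not among the genes that rose.

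Markers of other cell types moved with activation. Of the 14 tested myeloid markers of 15, 12 fell in WT and 11 in KO, and their summed signal went from 26776 to 34519 in WT T0 to 9046 to 10611 in WT T6, and from 36700 to 43851 in KO T0 to 10668 to 13179 in KO T6. Of the 10 tested T cell markers of 12, 4 fell in WT and 5 in KO, with sums of 101190 to 120606 in WT T0, 78445 to 88879 in WT T6, 83089 to 97070 in KO T0 and 56306 to 70094 in KO T6. The summed NK cell markers (2 of 5 tested) went from 7391 to 8436 in WT T0 to 2798 to 3635 in WT T6. The difference between the 3' and 5' actin control probe sets, a measure of RNA quality, went from 0.30 ± 0.08 to 0.50 ± 0.05 in WT and from 0.36 ± 0.14 to 0.71 ± 0.09 in KO. A summed signal above 0 does not show that each marker of its list was present at T6. The part of these markers in the rise of the proteasome genes was not tested.

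The second comparison asks whether the 2 genotypes responded alike. Of the genes that rose, 24 were called in both, which is 24 of the 31 WT risers and 24 of the 26 KO risers. By the probe sets used here, another 7 were called in WT alone (Psma6, Psmb3, Psmc1, Psmc6, Psmd2, Psmd6 and Psmd14) and 2 in KO alone (Psmb9 and Psmd8). None of these differences between genotypes passed its own test. When probe sets were tested separately, a second bright probe set of Psma6 and 1 of Psmb3 rose in KO, by 0.39 and 0.35. The interaction, which compares the KO change with the WT change, called 0 of the 48 genes and 0% of all 13156 (limma), with 1 of the 48 and 604 of all genes at an unadjusted p under 0.05.

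**Figure D3:**
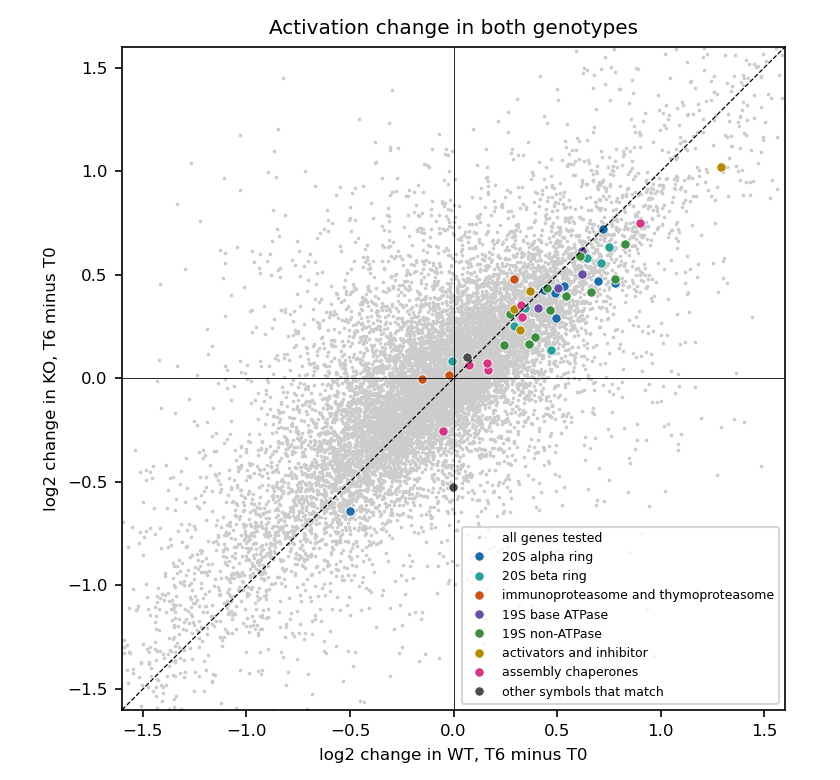
Log2 change from T0 to T6 in WT (x axis) and in KO (y axis) of the 48 proteasome genes, coloured by role, over all 13156 genes tested (grey); the dashed line marks equal change, and 428 genes lie outside the axes. Most proteasome genes sit in the upper right, 37 of 48 below the dashed line, and Psmb8 and Psmb10 near the origin.

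The changes of the 2 genotypes followed a similar order. Over the 48 genes the changes correlated at r = 0.906 (Spearman rho 0.884), and over all 13156 genes at r = 0.840. These are correlations across genes, which are not independent replicates. Of all 13156 genes, the interaction was negative for 5685 and positive for 7471. Over the 48 genes it was negative for 37 and positive for 11, with a median of -0.08 against 0.04 for all genes. That median was -0.024 without KO T0 replicate 2, -0.051 without KO T6 replicate 1 and -0.032 without both KO arrays numbered 2. The median SE for a single gene was 0.15, which does not measure the spread of such a median or sign count. Whether the 48 genes differ between genotypes as a set was not tested.

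The 3 smallest p-values of the interaction belonged to Psma7, Psmd11 and Psma4. Psma7, an alpha subunit, read 12.04, 11.98 and 12.10 in WT T0, 12.92, 12.73 and 12.81 in WT T6, 12.26, 12.23 and 12.16 in KO T0, and 12.73, 12.55 and 12.75 in KO T6. The KO arrays were the higher ones at T0 with no overlap, and overlapped the WT arrays at T6. The interaction was -0.32 (interval -0.60 to -0.04, unadjusted p = 0.0296, adjusted p = 0.9997 in limma). Psmd11, a lid subunit, had an interaction of -0.24 and Psma4 one of -0.23. For the immunoproteasome genes all 3 values were positive, at 0.19 for Psmb9, 0.15 for Psmb10 and 0.04 for Psmb8, and none was called. Over all 48 genes the 95% intervals of the interaction reached from -1.23 to 0.77.

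The third comparison asks whether loss of Scap moved these genes within a state. At T0, 0 of the 48 were called, against 0.038% of all genes (5 of 13156, limma), and 0 of the 48 had an unadjusted p under 0.05, against 1286 of all genes. Of all 13156 genes, the log2 difference, KO minus WT, was positive for 6573 and negative for 6583, with a median of -0.0001. Over the 48 genes it was positive for 32 and negative for 16, with a median of 0.05. That median was 0.012 without KO T0 replicate 2 and 0.11 without KO T0 replicate 3. The 3 smallest p-values were those of Psma8, Psma7 and Psmd3. Psmd3, a lid subunit, read 10.50, 10.43 and 10.67 in WT and 10.84, 10.74 and 10.61 in KO, which overlap, a difference of 0.20 (interval -0.04 to 0.43). Psma7 differed by 0.18 (interval -0.02 to 0.38). Psma8 read 5.86, 6.36 and 5.86 in WT and 6.90, 6.65 and 6.29 in KO, a difference of 0.59 near background (interval -0.05 to 1.23). The smallest adjusted p was 0.546.

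At T6, 0 of the 48 were called, against 0.0988% of all genes (13 of 13156, limma), and 1 of the 48 had an unadjusted p under 0.05, against 1549 of all genes. The difference was positive for 17 genes and negative for 31, against 7515 and 5641 of all genes. The median was -0.03 against 0.04 for all genes. The gene under 0.05 was Psma4, an alpha subunit, which read 13.23, 13.23 and 13.26 in WT and 13.03, 12.87 and 13.15 in KO. The KO arrays all lay below the WT arrays, a difference of -0.23 (interval -0.44 to -0.02, unadjusted p = 0.0362, adjusted p = 0.393). Psmd11 read 12.76, 12.78 and 12.77 in WT and 12.56, 12.69 and 12.50 in KO, again without overlap, a difference of -0.19 (interval -0.39 to 0.02). Psma2, an alpha subunit, read 13.28, 13.28 and 13.40 in WT and 13.14, 13.16 and 13.24 in KO, a difference of -0.14 (interval -0.32 to 0.04). At T0 it had read 12.94, 12.81 and 12.90 in WT and 12.75, 12.73 and 12.78 in KO, lower in KO without overlap as well. Psmb1 went the other way at T6, with every KO array above every WT array. It read 12.38, 12.29 and 12.47 in WT and 12.49, 12.48 and 12.60 in KO, a difference of 0.15 (interval -0.04 to 0.33). The genes without overlap between genotypes were not counted.

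**Figure D4:**
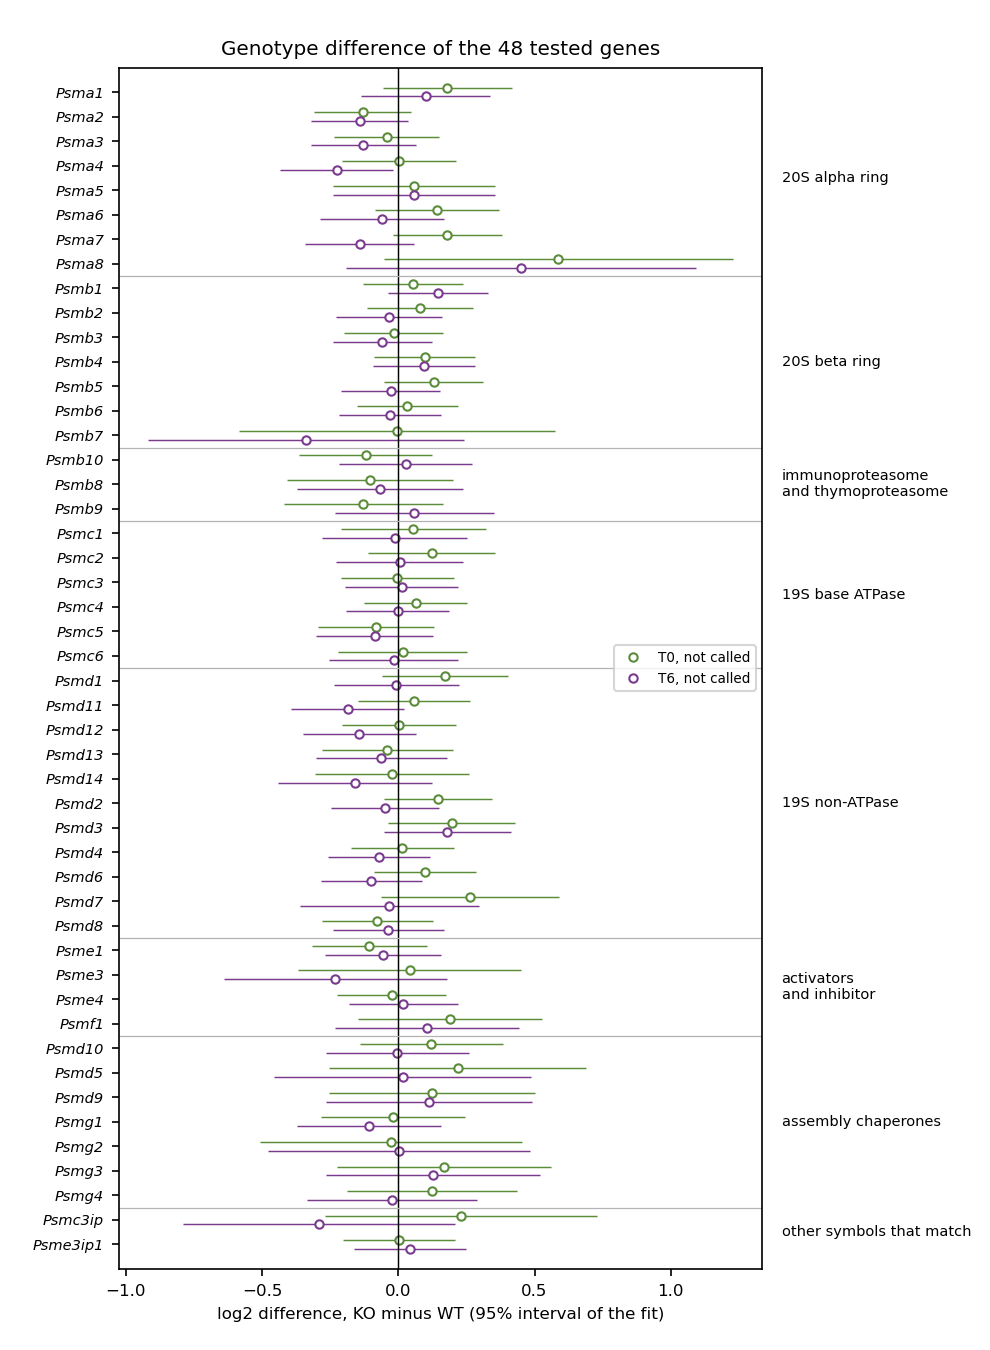
Log2 difference between KO and WT (x axis, KO minus WT, log2 units) of the 48 tested genes at T0 (green) and T6 (purple), grouped by role; points are the estimates of the fit, lines their 95% intervals, and open points were not called. The estimates lie between -0.34 and 0.59, all open, and Psma8, a gene near background, lies farthest to the right.

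The intervals limit how large a genotype difference these data allow. Psma8 and Psmc3ip had mean log2 signals of 6.03 and 8.06, and without these dim genes the estimates ran from -0.13 to 0.26 at T0 and from -0.34 to 0.18 at T6. Their 95% intervals reached from -0.58 to 0.69 at T0 and from -0.92 to 0.52 at T6, with the lower bounds set by Psmb7 at both times and the upper ones by Psmd5 at T0 and Psmg3 at T6. The catalytic subunit Psmb5 differed by 0.13 at T0 (interval -0.05 to 0.31) and by -0.03 at T6 (interval -0.21 to 0.15). These are the outermost bounds over the genes, and the median SE was 0.10 at each time, so most single genes had narrower intervals. A p that misses the threshold does not show that the genotypes are alike. With 3 arrays a group, a difference within a gene's own interval remains possible.

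Markers of other cells differed in direction between the genotypes, with few of them called. All 12 tested B cell markers of 13 were higher in KO at both times, with 0 called, and their summed signal was 1697 to 3340 in WT T0, 3003 to 11531 in KO T0, 894 to 1801 in WT T6 and 2476 to 6749 in KO T6. The 5 tested erythroid markers of 8 summed to 2430 to 5134 in WT T0, 4335 to 31788 in KO T0, 1948 to 3963 in WT T6 and 3399 to 38718 in KO T6. The 11 tested proliferation markers of 12 summed to 7784 to 16190 in WT T0, 13260 to 36104 in KO T0, 6622 to 11997 in WT T6 and 10549 to 39498 in KO T6. The highest KO sums of the erythroid and proliferation lists came from the arrays numbered 2. At both times 0 genes of these lists were called. All 10 T cell markers were lower in KO at both times, with 0 called. Of the 14 tested myeloid markers 13 were higher in KO at both times, and at T6 Tyrobp, a signalling adaptor, and Vcam1, an adhesion molecule, were called as higher (by 1.68 and 1.13, adjusted p = 0.0483 each), which is 2 of the 4 genes of all 13156 called higher in KO. Psmb7, Psmd5 and Psmf1 were highest on both KO arrays numbered 2, by 0.56, 0.55 and 0.34 above the next KO array at T0 and by 0.44, 0.66 and 0.38 at T6. Without these 2 arrays 23 genes rose in KO in place of 26. The part of these cells in the genotype comparison was not tested.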

How the data were processed

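Gene expression of splenic CD8 T cells was measured on 12 Affymetrix mouse arrays, 3 in each of 4 groups. The deposited values are linear signal intensities per probe set, made by the authors with GCOS, per the submitters' processing notes; its version, background step and probe summary are not given in the sources used here. Every array had a trimmed mean intensity of 500.003 (percentiles 2 to 98), so the arrays had been scaled. Genome build and probe positions are not given in the sources used here.

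Signals were taken as log2(signal + 16), which understates changes of dim genes. Symbols came from the platform annotation, and 932 probe sets with several symbols and 9160 with none were left out. Of several probe sets of a gene the one with the highest mean was used. It had to exceed percentile 40 of the array on 3 or more arrays. Limma 3.58.1 in R 4.3.3 fitted 4 group means over all 12 arrays (lmFit and eBayes, two-sided), with 5 contrasts and Benjamini-Hochberg adjustment over all genes. The fit was tested on simulated data. Precision is limited by the number of arrays. The labels call the arrays biological replicates of 3 mice a genotype but do not say which T0 and T6 arrays share a mouse. Deviations from group means correlated between arrays of the same number at 0.23, -0.06 and -0.11 in WT and 0.18, 0.46 and 0.38 in KO. As they did not pair the WT arrays, the main fit had no block. All 3 KO values exceeded 0.1, so KO calls that a block changed are given with it.

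The members and lists were chosen with earlier results of these data known. Array values are given for the 3 largest called changes of each contrast in each direction, or the 3 smallest p-values where fewer were called, and for the catalytic pairs. From other lists up to 5 genes by smallest p may be named. The alternatives were another added constant, quantile normalization, median centring, other filters, other use of probe sets, the groups of a contrast alone, a replicate block, and arrays left out. Promoters were 300 bases from RefSeq.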

Additional observations from a re-analysis of the deposited data

How the results depend on the processing

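The counts of proteasome genes that rose held their direction under all 11 alternatives and 12 omissions of single arrays, at 23 to 33 in WT and 15 to 31 in KO under the alternatives. With 1 array left out they were 24 to 32 in WT and 19 to 26 in KO. The lowest KO count, 15 in place of 26, came from fitting the KO arrays alone. Fitting the WT arrays alone gave 28 in place of 31. The reason for the larger loss in KO was not tested. A block for replicate number gave 28 rises in WT and 22 in KO. With that block 1 gene fell in WT (Psma8) and 2 in KO (Psma8 and Psmc3ip), in place of 0. Psmc3ip also made the count of KO falls 1 when both KO arrays numbered 2 were left out, and 0 to 1 when single arrays were left out (1 without KO T6 replicate 2). With each probe set tested separately 1 dim probe set, of Psma1, fell in WT. The Psmc1 change in WT was -0.20 (adjusted p = 0.274) in place of 0.41 when the probe sets of each gene were averaged. The second Psmc1 probe set read 4.86 in WT T0 and was too dim to be tested. The calls of 18 of the 31 WT risers and 10 of the 26 KO risers held under every alternative. In KO against WT at T0, at T6 and in the interaction, 0 genes were called under any of them. Median centring moved the median of all genes in WT from -0.06 to 0.05, and that of the proteasome genes from 0.40 to 0.51. The median difference of the proteasome genes between KO and WT was 0.023 at T0 and -0.12 at T6 with median centring, 0.0030 at T0 when probe sets were averaged, and -0.0078 at T6 with quantile normalization, in place of 0.05 and -0.03. The median interaction with median centring was -0.14 in place of -0.08. Signals near background, as for Psma8, limit what can be said of dim genes.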

Other observations

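Psme2, the beta chain of the activator PA28, lay outside the name rule because its probe set carries the symbols Psme2b and Psme2. The signals of these near-identical copies cannot be told apart. The probe set read 13.12, 13.06 and 13.09 in WT T0 and 13.66, 13.73 and 13.77 in WT T6. In KO it read 12.90, 12.94 and 13.12, then 13.65, 13.51 and 13.69. The group means were 13.09 ± 0.03, 13.72 ± 0.06, 12.99 ± 0.11 and 13.62 ± 0.09 (SD, n = 3), and every T6 array lay above every T0 array of its genotype. It was not part of the test across genes.

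Among the genes on the other lists, Stat3, a transcription factor activated by cytokines, rose by 0.62 in WT and 0.96 in KO. Nlrc5, the activator of MHC class I genes, stood at 0.10 and 0.24 and was called in neither. The deubiquitinases of the 19S cap outside the name rule, Uchl5 and Usp14, stood at 0.39 and 0.26 in WT and were not called (adjusted p = 0.0964 and 0.411).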
